A study of Mus musculus with 8 samples.

Results

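The mouse genes for collagen chains, those with a symbol of the form Col, a type number, the letter a and a chain number, were followed through the first day after myocardial infarction (MI) in hearts with and without the ubiquitin ligase MAFbx. All 44 such genes of the RefSeq gene table were measured, of 19938 genes on the array, with 1 probe per gene, chosen as its brightest on average across the 8 arrays. They were divided by type into 11 fibrillar collagens (types 1, 2, 3, 5, 11, 24 and 27), 8 basement membrane collagens (types 4, 15 and 18) and 25 other collagens. RNA from whole mouse hearts had been measured on Affymetrix Mouse Gene ST arrays. The groups were MAFbx knockout (KO) hearts 1 day after permanent ligation of the left coronary artery (KO MI), wild-type (WT) hearts 1 day after the same ligation (WT MI), KO hearts after a sham operation (KO sham) and WT hearts after a sham operation (WT sham), with 2 arrays in each. The labels give neither the time after the sham operation nor the age, sex or strain of the mice, the deleted part of the gene, or whether the deletion was limited to a tissue. Nor do they state that each array holds a different animal, so the p-values reflect only how far these samples vary, and that variation may be technical.

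Collagens are built from 3 chains wound into a triple helix, which are hydroxylated and folded in the endoplasmic reticulum, secreted, trimmed, and assembled into fibrils, sheets or filaments. Fibrillar collagens carry tension, and types I and III are the main ones of the heart wall, made chiefly by fibroblasts. Type IV collagen forms the sheet of the basement membrane around cardiomyocytes and vessels, and most of the remaining types decorate fibrils, link them to cells or span membranes. After an infarct the dead muscle is replaced by a collagen scar, and the title of the series names rupture of the heart in that period as its subject.

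Values are log2 expression levels as deposited, and differences are in log2 units. A gene is said to have risen or fallen where limma's Benjamini-Hochberg adjusted p over all 19938 genes was under 0.05. Levels of different genes come from different probes and are not set against each other. Fbxo32, which encodes MAFbx, read 5.14 and 5.46 in KO MI against 8.35 and 8.21 in WT MI, and 4.68 and 5.17 in KO sham against 8.76 and 8.79 in WT sham, so the KO arrays were below the WT arrays in both conditions. The first principal component of all genes, with 73.9% of the variance, separated MI from sham, and on the second, with 8.56%, KO sham replicate 1 scored -21.2, against 15.3 for KO sham replicate 2, and WT MI replicate 2 scored -20.2, against 0.6 for WT MI replicate 1. Leaving out either array moved some values by over 1.5 times, or past the threshold. Some of these are given below with and without it, and a value printed alone may also depend on these arrays.

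Single collagen genes rose and others fell after infarction, within every class except the fibrillar and basement membrane genes of KO hearts, where none fell. In KO hearts 6 of the 44 collagens rose after MI and 3 fell, which is 13.6% and 6.82% of them, where 10.5% of all genes rose and 10.3% fell. In WT hearts 4 rose and 5 fell, 9.09% and 11.4% of the collagens, where 12.3% of all genes rose and 15.8% fell. These shares lie near or below those of all genes. At an unadjusted p under 0.05 the counts were 13 of 44 in KO and 12 of 44 in WT, 29.5% and 27.3%, against 31.9% and 38.8% of all genes. Both MI arrays lay above both sham arrays for 10 collagens in KO and 20 in WT, 22.7% and 45.5%, against 28.1% and 35% of all genes, and below both for 5 and 10, 11.4% and 22.7%, against 27.5% and 31.6%. The median difference between MI and sham over the 44 collagens was 0.05 in KO and 0.15 in WT, against 0.01 and 0.04 over all genes. Of the 12 collagens that passed in either genotype, 6 passed in both, and each of these 6 changed the same way in KO and WT hearts: Col4a1, Col4a2 and Col12a1 rose, and Col6a1, Col6a2 and Col14a1 fell. Those 6 are 6 of the 9 calls in KO and 6 of the 9 in WT. The 2 comparisons set different arrays against each other, but all 8 arrays entered the same fit. Both tests of a gene thus use the same variance estimate and are not independent. The share of all genes that passed in both genotypes is not given, so the size of this overlap cannot be judged. Col3a1, Col5a2 and Col8a1 passed in KO hearts alone, and Col1a2, Col2a1 and Col15a1 in WT hearts alone. Of the 12, 10 lay above the median gene in mean level over the 8 arrays, as did 24 of the 44. In bulk heart RNA, fewer cells of a type and less RNA per cell cannot be told apart.

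**Figure D1:**
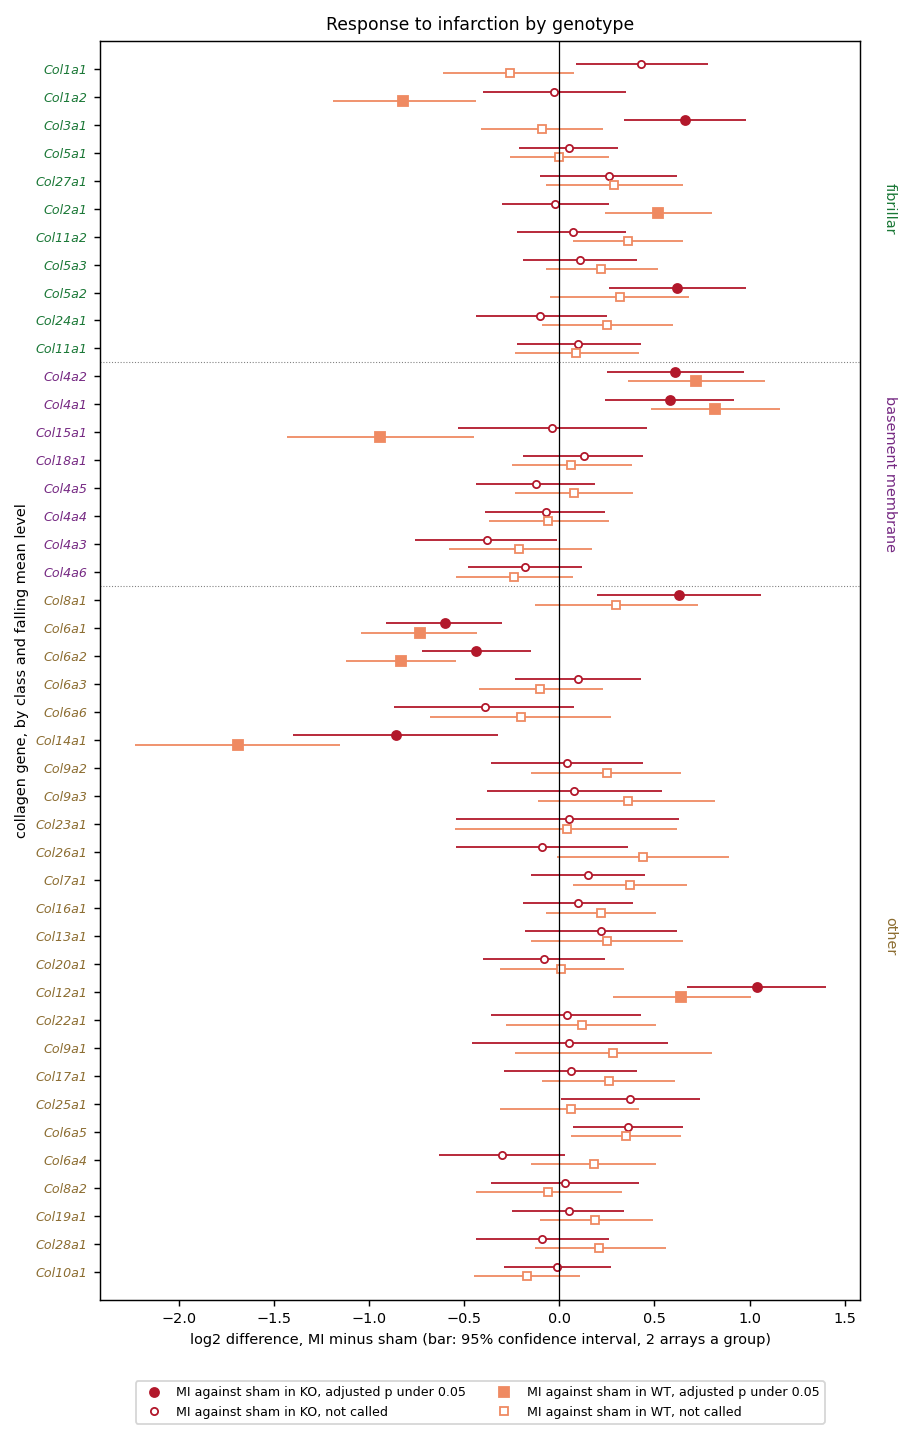
Log2 difference between MI and sham (x axis) for each of the 44 collagen genes (y axis, grouped by class and ordered by mean level), in KO (circles) and WT (squares), with 95% confidence intervals from limma on 2 arrays per group; filled symbols passed an adjusted p of 0.05. Col14a1 reaches -1.69 in WT, Col12a1 reaches 1.04 in KO, and most intervals include 0.

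Among the 3 fibrillar genes of types I and III, Col3a1 rose in KO MI hearts, Col1a2 fell in WT MI hearts, and Col1a1 passed in neither; the difference between the responses, given below, passed for none of them. Col3a1, the only chain of type III collagen, which lends the early scar its fine elastic fibrils, read 8.57 and 8.39 in KO MI against 7.80 and 7.85 in KO sham, and 7.75 and 7.55 in WT MI against 7.60 and 7.87 in WT sham. The KO MI arrays stood above the other 6, which overlapped. Its difference was 0.66 in KO (SE 0.14, 1.58-fold, limma adjusted p = 0.0097) and -0.09 in WT (SE 0.14, adjusted p = 0.696). The call in KO was lost without KO MI replicate 1 (difference 0.57, adjusted p = 0.0837).

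Col1a2, the second chain of type I collagen, the stiff fibril of tendon and mature scar, read 8.35 and 8.12 in KO MI against 8.12 and 8.41 in KO sham, and 7.70 and 7.34 in WT MI against 8.25 and 8.42 in WT sham. Only the WT MI arrays were low. Infarction changed it by -0.82 in WT (SE 0.17, 1.76-fold lower, limma adjusted p = 0.00524), a call that held in all 20 alternative fits (adjusted p from 0.00231 to 0.049), and by -0.03 in KO (SE 0.17, adjusted p = 0.941). Col1a1, the main chain of type I collagen, read 8.82 and 8.62 in KO MI against 8.12 and 8.45 in KO sham, and 8.09 and 7.88 in WT MI against 8.17 and 8.33 in WT sham. Its KO MI arrays lay above both KO sham arrays and its WT MI arrays below both WT sham arrays, with differences of 0.43 (adjusted p = 0.0798) and -0.26 (adjusted p = 0.244). The KO difference was 0.27 without KO sham replicate 1 (adjusted p = 0.298) and passed without KO sham replicate 2 (0.59, adjusted p = 0.0385) and after cyclic loess (0.47, adjusted p = 0.0304). Of all genes, 1.22% stood in this way on opposite sides of sham, and Col1a1 was the only collagen to do so.

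The 250 bases before the annotated start of Col1a2 and Col3a1 are shown because these genes passed in different genotypes. They come from RefSeq, build GRCm38.p6, at chr6:4505368-4505617 (plus strand) for Col1a2 and chr1:45311288-45311537 (plus strand) for Col3a1. Capitals mark a CCAAT box (CCAAT), a GC box (GGGCGG) or a TATA box (TATAAA) on either strand, and the start site follows the last base.
Col1a2: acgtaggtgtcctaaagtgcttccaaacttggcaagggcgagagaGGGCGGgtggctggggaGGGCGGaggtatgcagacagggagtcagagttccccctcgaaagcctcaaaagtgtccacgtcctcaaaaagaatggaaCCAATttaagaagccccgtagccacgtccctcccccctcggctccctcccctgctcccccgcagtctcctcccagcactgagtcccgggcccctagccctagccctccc
Col3a1: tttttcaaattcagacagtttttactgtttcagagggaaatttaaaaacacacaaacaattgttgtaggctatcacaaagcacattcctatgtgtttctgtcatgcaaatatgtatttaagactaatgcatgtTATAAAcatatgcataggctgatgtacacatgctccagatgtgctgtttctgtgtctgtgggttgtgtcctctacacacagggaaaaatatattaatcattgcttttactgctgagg
The Col1a2 window holds 1 CCAAT box and 2 GC boxes and is 62.0% G or C. The Col3a1 window holds 1 TATA box and is 35.2% G or C, against a median of 52.0% over all windows.

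The minor fibrillar collagens that co-assemble with types I and III were split. Col5a2, a chain of the type V collagen that seeds fibrils, read 6.16 and 6.04 in KO MI against 5.33 and 5.63 in KO sham, and 6.10 and 5.71 in WT MI against 5.55 and 5.62 in WT sham. The MI arrays lay above the sham arrays in both genotypes, by 0.62 in KO (SE 0.16, limma adjusted p = 0.023) and 0.32 in WT (SE 0.16, adjusted p = 0.182). Removal of KO sham replicate 1, KO MI replicate 1 or KO MI replicate 2 ended the call in KO (adjusted p = 0.108, 0.135 and 0.0791), as did testing all probes (0.0611). In WT the difference was 0.51 without WT MI replicate 2 (adjusted p = 0.0708), and it passed when KO sham replicate 1 was left out as well (0.51, adjusted p = 0.0253). Col5a1, its partner chain, differed little, with all 8 arrays between 6.57 and 6.71 and differences of 0.05 in KO and 0.00 in WT. Col5a3 differed by 0.11 and 0.22 in the same order, and did not pass.

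Col2a1, the fibrillar collagen of cartilage, rose in WT MI hearts, with 6.33 and 6.54 against 5.91 and 5.92 in WT sham, and read 6.04 and 6.04 in KO MI against 6.13 and 5.99 in KO sham. The WT MI arrays were the highest of the 8. The difference was 0.52 in WT (SE 0.13, limma adjusted p = 0.0123) and -0.02 in KO, and the call in WT was lost without WT sham replicate 1, WT sham replicate 2 or WT MI replicate 2 (adjusted p = 0.0797, 0.0733 and 0.0826). Of 11 cartilage genes, which include Col2a1 and Col9a1, 2 rose and 3 fell in WT hearts, where 12.3% of all genes rose and 15.8% fell. Of these 11, 3 lay above the median gene. The mean level of the 11 genes was 5.23 to 5.39 in KO MI, 5.32 to 5.51 in WT MI, 4.76 to 5.13 in KO sham and 5.27 to 5.43 in WT sham. Their part in the Col2a1 values was not tested. The cartilage collagens Col11a1 and Col11a2 and the developmental fibrillar collagens Col24a1 and Col27a1 passed in neither genotype, with differences of 0.10, 0.07, -0.10 and 0.26 in KO and 0.09, 0.36, 0.25 and 0.29 in WT. Col11a2 passed in WT with array weights (adjusted p = 0.038), without the lowest 33.3% of genes (0.0415) or without either KO sham array (0.0406). Col27a1 differed by 0.45 in KO without KO sham replicate 1 (adjusted p = 0.0865), and by 0.45 with WT MI replicate 2 left out too (adjusted p = 0.038). Over the 11 fibrillar genes the median was 0.10 in KO, with 2 rises, and 0.22 in WT, with 1 rise and 1 fall. The KO rises are 18.2% of the class, where 10.5% of all genes rose. The WT rise and fall are 9.09% each, where 12.3% of all genes rose and 15.8% fell. Without KO sham replicate 1 the KO median was 0.25.

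**Figure D2:**
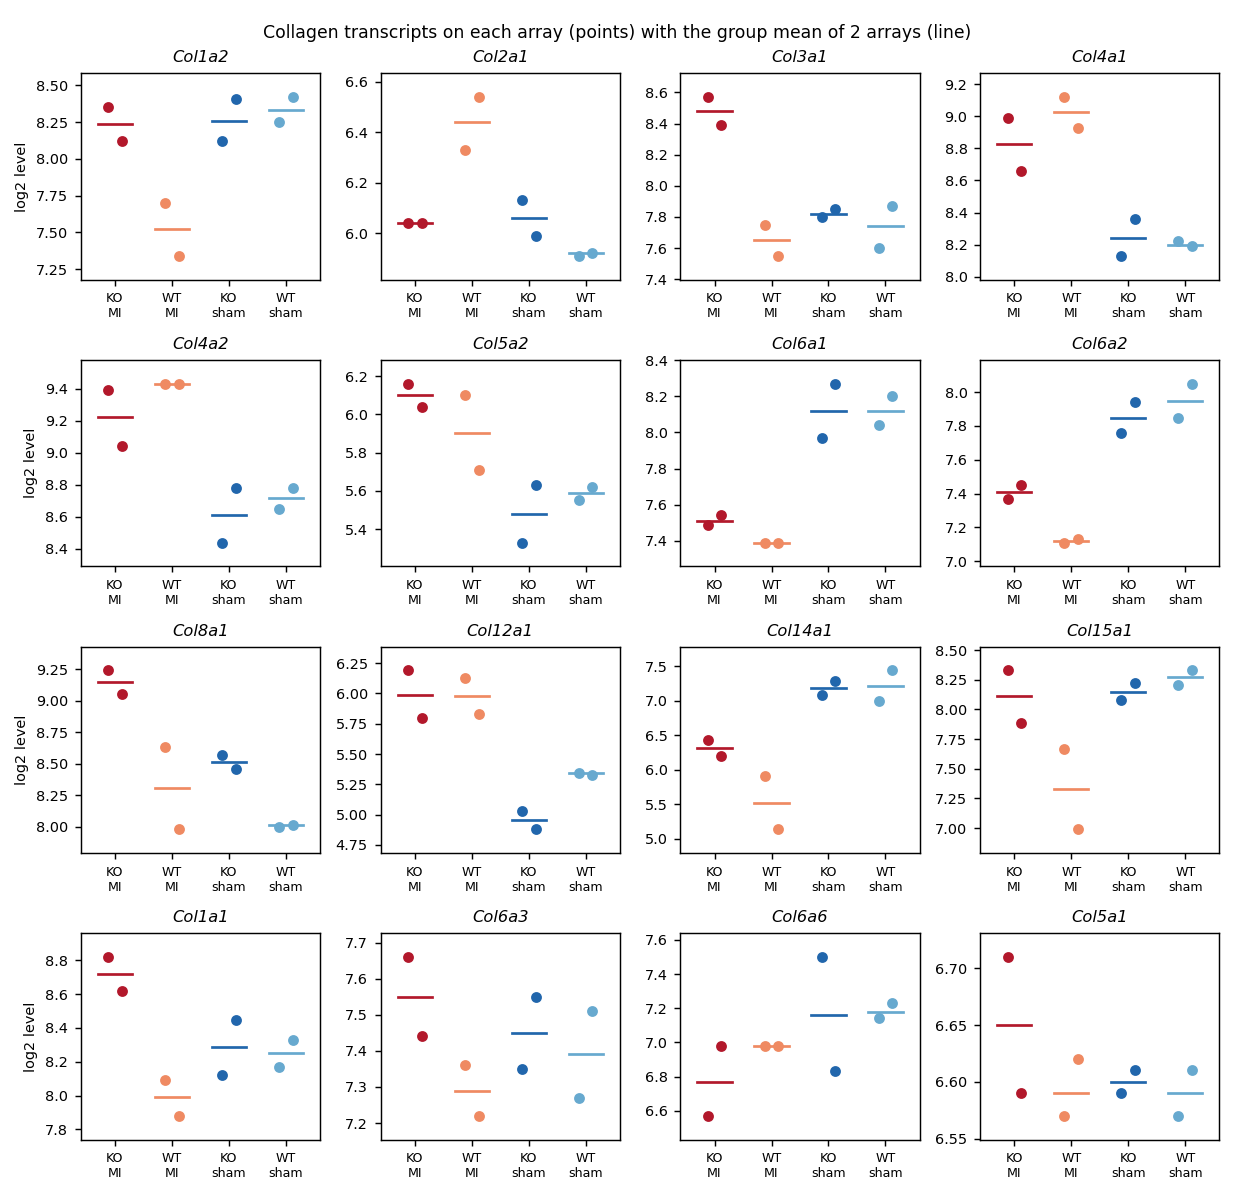
Log2 level (y axes, which differ between panels) of 16 collagen genes on each array (points) with the mean of the 2 arrays of a group (lines). Col12a1 and Col4a1 are high in both MI groups, Col6a1 and Col14a1 are low in both, Col3a1 is high in KO MI (8.57 and 8.39), and Col1a2 is low in WT MI (7.70 and 7.34).

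In the basement membrane class the ubiquitous chains of type IV collagen rose in both genotypes, and the other members did not. Col4a1 read 8.99 and 8.66 in KO MI against 8.13 and 8.36 in KO sham, and 9.12 and 8.93 in WT MI against 8.22 and 8.19 in WT sham. Col4a2, which joins it in the same molecule, read 9.39 and 9.04 in KO MI against 8.44 and 8.78 in KO sham, and 9.43 and 9.43 in WT MI against 8.65 and 8.78 in WT sham. Every MI array exceeded every sham array for both genes. Col4a1 rose by 0.58 in KO (SE 0.15, 1.5-fold, limma adjusted p = 0.0227) and 0.82 in WT (SE 0.15, 1.77-fold, adjusted p = 0.00286). Col4a2 rose by 0.61 in KO (SE 0.16, 1.52-fold, adjusted p = 0.0248) and 0.72 in WT (SE 0.16, 1.64-fold, adjusted p = 0.00842). The KO call of each was lost without KO sham replicate 1 (adjusted p = 0.0983 for Col4a1 and 0.117 for Col4a2) or KO MI replicate 1 (0.174 and 0.186), with all probes tested (0.0572 and 0.0643) and with only the groups compared in the fit (0.0535 and 0.0609). The WT call of Col4a2 was lost without WT sham replicate 1 (0.0676), while that of Col4a1 held in all 20 alternative fits.

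Col4a1 and Col4a2 lie head to head, and at the start sites of the RefSeq promoter table (build GRCm38.p6) their transcripts run in opposite directions and share their first 22 bases, at chr8:11312805-11312826. The RefSeq gene table extends Col4a1 beyond that start. These bases, on the plus strand from the Col4a2 start to the Col4a1 start, are shown because the pair rose together, with capitals marking a GC box.
Col4a1 and Col4a2 start sites: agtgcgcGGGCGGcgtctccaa
The stretch is 72.7% G or C.

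Col15a1, a basement membrane collagen that links capillaries and muscle fibres to the matrix around them, fell in WT MI hearts. It read 8.33 and 7.89 in KO MI against 8.08 and 8.22 in KO sham, and 7.67 and 6.99 in WT MI against 8.21 and 8.33 in WT sham. The WT MI arrays were the lowest, and the KO MI arrays overlapped the KO sham arrays. The difference was -0.94 in WT (SE 0.22, 1.92-fold lower, limma adjusted p = 0.0103) and -0.04 in KO (adjusted p = 0.941). Without WT MI replicate 2, which stood apart on the second component, the WT difference was -0.60 (adjusted p = 0.0711), and the call was also lost without WT sham replicate 2 (adjusted p = 0.0639). Col18a1, the source of endostatin, was between 5.97 and 6.26 on all arrays, with differences of 0.13 in KO and 0.06 in WT. The tissue-restricted type IV chains Col4a3, Col4a4, Col4a5 and Col4a6, known from the basement membranes of kidney and other epithelia, differed by -0.38, -0.07, -0.12 and -0.18 in KO and by -0.21, -0.06, 0.08 and -0.24 in WT, with no call. The class median was -0.05 in KO and 0.00 in WT. In KO 2 of the 8 genes rose and 0 fell, 25% and 0%, where 10.5% of all genes rose and 10.3% fell. In WT 2 rose and 1 fell, 25% and 12.5%, where 12.3% of all genes rose and 15.8% fell. The rises in both are Col4a1 and Col4a2, chains of the same molecule.

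Of the 25 other collagens, 2 rose and 3 fell in KO hearts, 8% and 12% of them, where 10.5% of all genes rose and 10.3% fell. In WT hearts 1 rose and 3 fell, 4% and 12%, where 12.3% of all genes rose and 15.8% fell. Type VI collagen, the beaded filament that ties cells to the surrounding matrix, is built chiefly from the chains of Col6a1, Col6a2 and Col6a3, and these genes moved apart. Col6a1 read 7.49 and 7.54 in KO MI against 7.97 and 8.27 in KO sham, and 7.39 and 7.39 in WT MI against 8.04 and 8.20 in WT sham. Col6a2 read 7.37 and 7.45 in KO MI against 7.76 and 7.94 in KO sham, and 7.11 and 7.13 in WT MI against 7.85 and 8.05 in WT sham. All MI arrays lay below all sham arrays for both genes. Col6a1 fell by 0.60 in KO (limma adjusted p = 0.0118) and by 0.73 in WT (adjusted p = 0.00298), and Col6a2 fell by 0.44 in KO (adjusted p = 0.0391) and by 0.83 in WT (adjusted p = 0.00111). Col6a3 overlapped between MI and sham, with 7.66 and 7.44 in KO MI against 7.35 and 7.55 in KO sham and 7.36 and 7.22 in WT MI against 7.27 and 7.51 in WT sham, and differed by 0.10 in KO (adjusted p = 0.72) and -0.10 in WT (adjusted p = 0.677). The WT calls held in all 20 alternative fits. The KO call of Col6a1 did not survive removal of KO MI replicate 1 (adjusted p = 0.0763) or 2 (0.0611), and that of Col6a2 without any array but KO sham replicate 1 and the WT MI arrays (0.0619 without either WT sham array, 0.131 without KO sham replicate 2, 0.185 without KO MI replicate 1 and 0.121 without KO MI replicate 2), and with array weights (0.0745), all probes (0.0701) or only the groups compared (0.0846).

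The genes of the first and second chain of type VI both lie on the minus strand of chromosome 10, and the 250 bases before their starts are shown because they fell together. They are RefSeq sequences of GRCm38.p6 at chr10:76726045-76726294 for Col6a1 and chr10:76623631-76623880 for Col6a2, written 5′ to 3′ on the minus strand, with the same motifs in capitals.
Col6a1: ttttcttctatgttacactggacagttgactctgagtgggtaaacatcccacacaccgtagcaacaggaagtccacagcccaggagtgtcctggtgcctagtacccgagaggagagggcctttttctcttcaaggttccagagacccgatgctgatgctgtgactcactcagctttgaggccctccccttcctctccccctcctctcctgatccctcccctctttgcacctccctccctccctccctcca
Col6a2: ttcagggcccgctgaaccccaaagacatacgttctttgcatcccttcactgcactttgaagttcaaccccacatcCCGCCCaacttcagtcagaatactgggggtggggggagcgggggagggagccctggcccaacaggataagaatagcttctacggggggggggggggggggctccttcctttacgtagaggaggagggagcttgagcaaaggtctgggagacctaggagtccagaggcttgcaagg
The Col6a1 window holds none of the 3 motifs, and the Col6a2 window holds 1 GC box, read here as CCGCCC on the other strand. They are 56.0% and 59.2% G or C.

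Col6a6, a further type VI chain, has 2 probes that did not behave alike. The brighter probe overlapped between KO MI and KO sham, with 6.57 and 6.98 against 7.5 and 6.83, and read 6.98 and 6.98 in WT MI against 7.14 and 7.23 in WT sham. Its differences were -0.39 in KO and -0.20 in WT, with adjusted p-values over all probes of 0.359 and 0.626. The other probe fell by 0.84 in KO and by 1.20 in WT (limma adjusted p over all probes = 0.0235 and 0.00472), so the Col6a6 result depends on the probe. The KO difference of the brighter probe depends on the KO sham array used. It was -0.72 without KO sham replicate 2, but that array (6.83) lay between the 2 KO MI arrays (6.57 and 6.98). Its fall in KO thus rests on KO sham replicate 1 (7.5).

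The fibril-associated collagens of types XII and XIV, which sit on the surface of type I fibrils, moved in opposite directions. Col12a1 read 6.19 and 5.80 in KO MI against 5.03 and 4.88 in KO sham, and 6.13 and 5.83 in WT MI against 5.34 and 5.33 in WT sham. Col14a1 read 6.43 and 6.20 in KO MI against 7.08 and 7.28 in KO sham, and 5.91 and 5.14 in WT MI against 6.99 and 7.44 in WT sham. In neither gene did MI and sham arrays overlap. Col12a1 rose by 1.04 in KO (SE 0.16, 2.05-fold, limma adjusted p = 0.00188), the largest rise among the 44 in KO or WT and one that held in all 20 alternative fits, and by 0.64 in WT (SE 0.16, 1.56-fold, adjusted p = 0.0155). Col14a1 changed by -1.69 in WT (SE 0.24, 3.23-fold lower, adjusted p = 6.69e-04), the largest fall among the 44 and again held in all 20 alternative fits, and by -0.86 in KO (SE 0.24, 1.81-fold lower, adjusted p = 0.0319). The WT call of Col12a1 was lost without WT sham replicate 1 or 2 or WT MI replicate 1 (adjusted p = 0.0773, 0.0791 and 0.0944), and the KO call of Col14a1 without KO sham replicate 1 or 2 or KO MI replicate 1 or 2 (0.0666, 0.134, 0.0849 and 0.183), with array weights (0.0595) or with all probes (0.0923).

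Col8a1, a chain of the short-chain network collagen VIII made by vascular cells and fibroblasts of injured vessels and hearts, read 9.24 and 9.05 in KO MI against 8.57 and 8.46 in KO sham, and 8.63 and 7.98 in WT MI against 8.0 and 8.01 in WT sham. It rose by 0.63 in KO (SE 0.19, limma adjusted p = 0.0438), where the groups did not overlap, and differed by 0.30 in WT (SE 0.19, adjusted p = 0.285), where they did. The overlap in WT rests on WT MI replicate 2 (7.98): without it the WT difference was 0.63 and passed (adjusted p = 0.0224), the size of the KO value. The KO value is the weakest of the 9 calls there: it was lost without either WT sham array (0.0673), KO sham replicate 1 (0.0895) or 2 (0.145), or KO MI replicate 1 (0.218) or 2 (0.107), and with array weights (0.0612), all probes (0.104) or median centring (0.0564).

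The remaining 18 other collagens, which include the chains of types VII, IX, X, XIII, XVI, XVII, XIX, XX, XXII, XXIII, XXV, XXVI and XXVIII and further chains of types VI and VIII, passed in no comparison. Their mean levels ran from 3.86 to 6.29, and 12 of the 18 lay below the median gene. In KO hearts their differences ran from -0.30 (Col6a4, a type VI chain) to 0.37 (Col25a1, a transmembrane collagen of neurons), with a median of 0.05 and 13 above 0. In WT hearts they ran from -0.17 (Col10a1, the collagen of hypertrophic cartilage) to 0.44 (Col26a1), with a median of 0.21 and 16 above 0. The median over all 25 other collagens in KO, 0.05, changed sign with the KO sham array used: it was 0.21 without KO sham replicate 1 and -0.16 without KO sham replicate 2.

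Loss of MAFbx was set against wild type within MI hearts and within sham hearts. In MI hearts 0 of the 44 collagens passed limma's adjusted p, where 0.0702% of all genes did (0.0301% higher and 0.0401% lower in KO), and 8 had an unadjusted p under 0.05, which is 18.2% of the collagens against 11.7% of all genes. In sham hearts 0 passed, where 0.0301% of all genes did (0.00502% higher and 0.0251% lower), and 3 had an unadjusted p under 0.05, 6.82% of the collagens against 5.1% of all genes. Averaged over both conditions 0 passed, where 0.0552% of all genes did (0.0251% higher and 0.0301% lower), and 4 had an unadjusted p under 0.05, 9.09% against 7.27%. The KO MI arrays lay above both WT MI arrays for 11 collagens and below both for 15, 25% and 34.1% of the 44, against 24.2% and 20.2% of all genes. In sham hearts the counts were 7 above and 1 below, 15.9% and 2.27%, against 16.6% and 16.1%.

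The scar collagens of types I and III had the smallest unadjusted p-values in MI hearts among the fibrillar genes, with each KO MI array above each WT MI array. Col3a1 was 0.83 higher in KO MI than in WT MI (SE 0.14, 95% confidence interval 0.51 to 1.15, 1.78-fold, unadjusted p = 1.96e-04, limma adjusted p = 0.0783) and ranked 50 of 19938 by p. Col1a1 was 0.73 higher (SE 0.15, interval 0.38 to 1.08, adjusted p = 0.152) and Col1a2 0.72 higher (SE 0.17, interval 0.34 to 1.10, adjusted p = 0.18). In sham hearts the same genes differed by 0.09, 0.04 and -0.07, and their KO and WT arrays overlapped. With a variance prior that follows intensity, Col3a1 passed in MI hearts (adjusted p = 0.0344). Over its other 19 alternatives the adjusted p was between 0.0606 and 0.535.

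Outside the fibrillar class, Col8a1 was 0.84 higher in KO MI than in WT MI (SE 0.19, limma adjusted p = 0.171), Col14a1 0.79 higher (SE 0.24, adjusted p = 0.266) and Col15a1 0.78 higher (SE 0.22, adjusted p = 0.236). These sizes rest partly on WT MI replicate 2: without it they were 0.51, 0.41 and 0.45 (adjusted p = 0.563, 0.776 and 0.724). Col2a1 differed by -0.40 (SE 0.13, adjusted p = 0.286). Col8a1 was also 0.51 higher in KO sham than in WT sham (SE 0.19, adjusted p = 0.887), with 8.57 and 8.46 against 8.0 and 8.01, and had the smallest p among the collagens for the effect averaged over conditions, a difference of 0.67 (SE 0.14, adjusted p = 0.245). The type IV chains, which rose with infarction, differed between KO MI and WT MI by -0.20 for Col4a1 (interval -0.54 to 0.14) and -0.22 for Col4a2 (interval -0.58 to 0.15). Col14a1 and Col2a1 lie on the same chromosome as Fbxo32, chromosome 15, at 2.66 and 39.76 Mb from it in the RefSeq table, as does Col22a1 at 13.58 Mb. In sham hearts their KO and WT levels differed by -0.04 for Col14a1 and 0.14 for Col2a1. Whether DNA near the deleted gene bears on them was not tested.

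**Figure D3:**
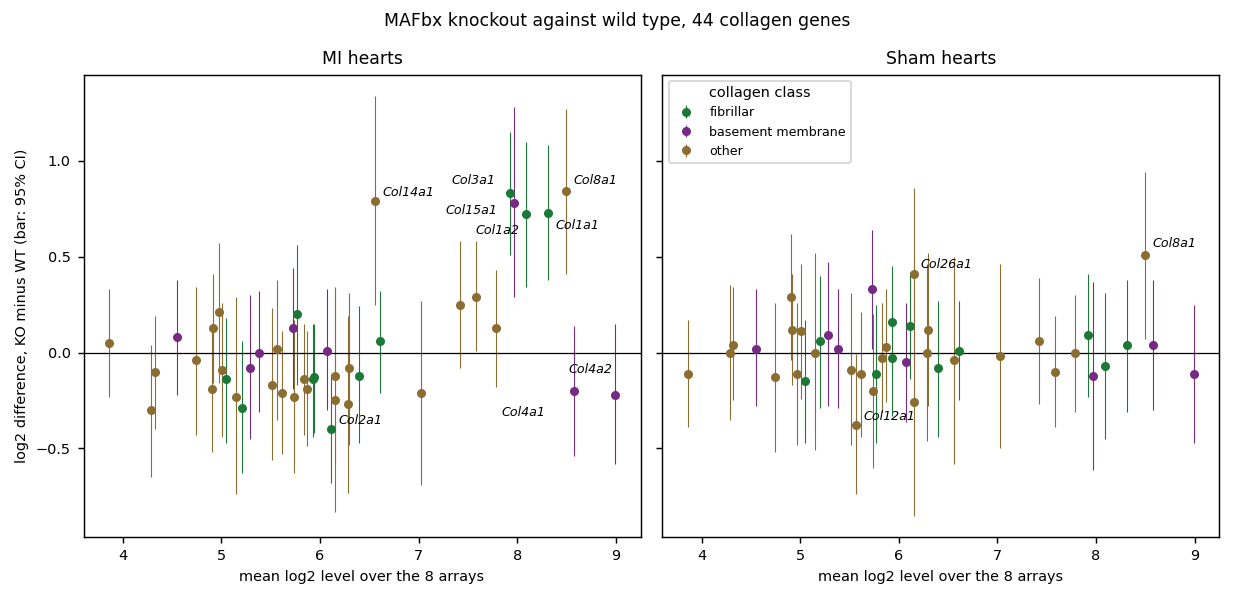
Log2 difference between KO and WT (y axis) against the mean log2 level over the 8 arrays (x axis) for the 44 collagen genes, in MI hearts (left) and sham hearts (right), with 95% confidence intervals from limma on 2 arrays per group, coloured by class. In MI hearts 6 genes lie between 0.72 and 0.84, of which Col8a1, Col14a1 and Col15a1 drop to 0.51, 0.41 and 0.45 without WT MI replicate 2, and none of the 44 passed an adjusted p of 0.05.

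The difference of the responses, the MI effect in KO minus that in WT, asks whether a collagen responded to infarction in another way without MAFbx. It was 0.69 for Col1a1 (SE 0.22, 95% confidence interval 0.21 to 1.18, limma adjusted p = 0.517), 0.79 for Col1a2 (SE 0.24, interval 0.26 to 1.32, adjusted p = 0.507) and 0.75 for Col3a1 (SE 0.20, interval 0.29 to 1.20, adjusted p = 0.474). For Col15a1 it was 0.90, for Col14a1 0.83 and for Col2a1 -0.54 (adjusted p = 0.533, 0.598 and 0.524). Without WT MI replicate 2 it was 0.57 for Col15a1 and 0.45 for Col14a1, and without that array and KO sham replicate 1 it was 0.43 for Col1a1 and 0.46 for Col1a2. None of the 44 passed, as none of all genes did (0%), and 7 collagens had an unadjusted p under 0.05, 15.9% against 8.21% of all genes. So the genes that passed in 1 genotype alone are not shown to respond differently in the other.

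Chains of the same molecule were compared by their log2 ratio on each array, set relative to the mean WT sham ratio. This description was chosen after the values had been seen and has no test. The ratio of Col1a1 to Col1a2 was 0.55 and 0.58 in KO MI against 0.09 and 0.12 in KO sham, and 0.48 and 0.63 in WT MI against 0.01 and -0.01 in WT sham. The shift with infarction was thus close in both genotypes, 0.46 in KO and 0.55 in WT. For type VI the ratio of Col6a1 to Col6a3 shifted by -0.70 in KO and -0.64 in WT, and that of Col6a2 to Col6a3 by -0.53 and -0.73, whereas that of Col6a1 to Col6a2 shifted by -0.17 and 0.09. The ratio of Col4a1 to Col4a2 shifted by -0.02 and 0.11, and that of Col5a1 to Col5a2 by -0.57 and -0.31. Such ratios show unequal change between the probes of 2 genes and not that either stayed constant.

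**Figure D4:**
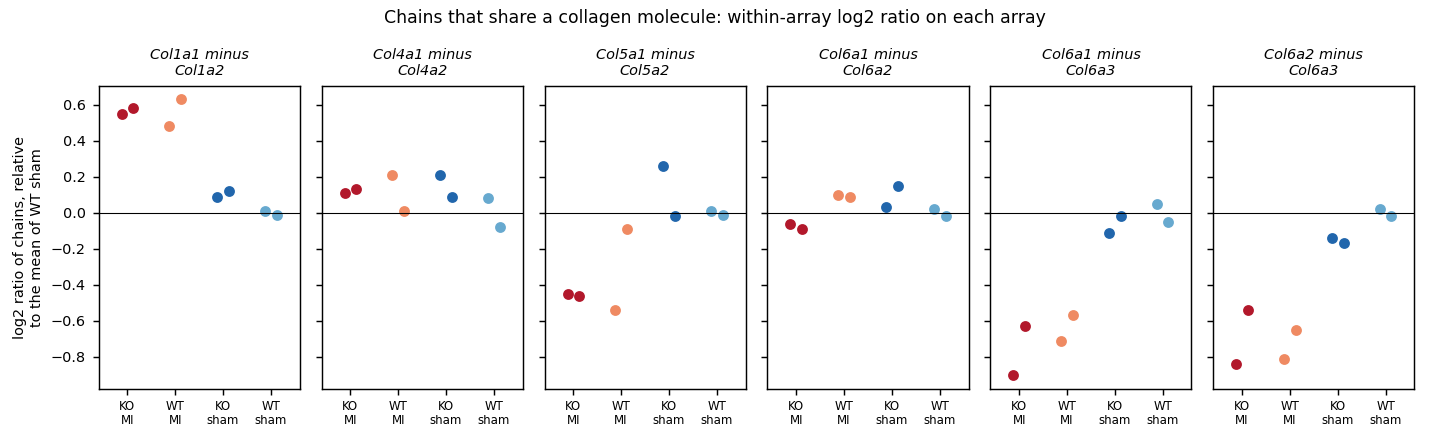
Within-array log2 ratio of pairs of chains of the same collagen type (y axis), relative to the mean WT sham ratio, on each of the 8 arrays grouped as KO MI, WT MI, KO sham and WT sham. The Col1a1 to Col1a2 ratio is raised on all 4 MI arrays (0.48 to 0.63), and the ratios of Col6a1 and Col6a2 to Col6a3 are lowered on all 4.

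RefSeq windows were matched for 35 of the 44 collagens (the table held none for Col14a1, Col2a1, Col26a1, Col1a1, Col9a3, Col12a1, Col5a2, Col4a3 and Col22a1). In the 250 bases before the start, a CCAAT box on either strand was found in 12 of the 35 and in 34.5% of 27025 windows of all genes. A GC box was found in 21 of the 35 and in 8907 of the 27025, and a TATA box in 5 of the 35 and in 3507 of the 27025. The GC box was present in 6 of 8 fibrillar, 4 of 7 basement membrane and 11 of 20 other windows. A match describes the letters of these windows and marks no known binding site.

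Genes that fold, finish, cut and bind collagen were followed as lists, described by their counts. Beside these counts, 10.5% of all genes rose and 10.3% fell in KO hearts, and 12.3% rose and 15.8% fell in WT hearts. Of 24 genes for folding and secretion, 8 rose and 2 fell in KO hearts (median 0.33) and 4 rose and 3 fell in WT hearts (median 0.09). P4hb, a subunit of the prolyl hydroxylase that stabilises the helix, read 11.36 and 11.18 in KO MI against 9.72 and 10.07 in KO sham, and 11.28 and 11.01 in WT MI against 9.95 and 9.99 in WT sham, a rise of 1.38 in KO (SE 0.16, limma adjusted p = 3.26e-04) and 1.18 in WT (SE 0.16, adjusted p = 4.50e-04). Plod3, a lysyl hydroxylase, rose by 1.04 in KO (SE 0.16, adjusted p = 0.00174) and 0.74 in WT (SE 0.16, adjusted p = 0.00708). P3h2, a prolyl 3-hydroxylase, fell by 0.71 in KO (SE 0.15, adjusted p = 0.00803) and by 1.02 in WT (SE 0.15, adjusted p = 7.52e-04). Of 28 genes for procollagen cleavage and fibril assembly, 7 rose and 6 fell in KO (median -0.06), and 5 rose and 13 fell in WT (median -0.34). Lox, which crosslinks fibrils, rose by 2.65 in KO and 2.69 in WT. Aspn, whose protein binds fibrils, changed by -1.41 in KO and -1.90 in WT. For both genes the limma adjusted p was between 8.58e-06 and 8.46e-05.

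Among 18 genes for collagen breakdown, 6 rose and 2 fell in KO (median 0.27) and 5 rose and 3 fell in WT (median 0.05). The rises included Mmp9, a gelatinase, at 8.28 and 8.88 in KO MI against 5.4 and 5.38 in KO sham and 9.43 and 9.47 in WT MI against 5.22 and 5.56 in WT sham, and Mmp8, the collagenase of neutrophils, at 6.05 and 5.23 against 2.78 and 2.95 and at 6.51 and 7.40 against 2.90 and 2.86 in the same order. Between KO MI and WT MI they differed by -0.87 (SE 0.19, limma adjusted p = 0.161) and -1.32 (SE 0.30, adjusted p = 0.168). Most of the breakdown list went the other way. Of its 18 differences between KO MI and WT MI, 14 were above 0 and 4 below (median 0.14). Mmp13 was 0.70 higher (SE 0.23, adjusted p = 0.301) and Mrc2 0.60 higher (SE 0.18, adjusted p = 0.255). Of 15 collagen receptors, 5 rose and 2 fell in KO (median 0.04) and 3 rose and 2 fell in WT (median 0.02). The integrin gene Itgb1, the common beta subunit, rose by 0.96 and 0.94, and its partner Itga1 fell by 0.96 in KO and by 1.13 in WT. Of 27 regulators of collagen transcription, 8 rose and 1 fell in KO (median 0.14) and 6 rose and 1 fell in WT (median 0.02). Tgfb2, a growth factor that induces collagen genes, rose by 1.79 in KO and 1.74 in WT. In all 5 lists 0 genes passed between KO MI and WT MI.

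Markers of the cells that make collagen moved with infarction. The marker counts here and below stand beside 10.5% of all genes that rose and 10.3% that fell in KO. In WT the shares were 12.3% and 15.8%. Of 18 fibroblast markers, 16 of them above the median gene, 1 rose and 5 fell in KO hearts (median -0.28) and 1 rose and 11 fell in WT hearts (median -0.63). Their mean level was 7.65 and 7.65 on the KO MI arrays, 7.32 to 7.52 in WT MI, 7.96 to 8.05 in KO sham and 8.11 to 8.17 in WT sham, so WT MI was lowest. Between KO MI and WT MI, 16 of the 18 differences were above 0 (median 0.19) and 0 passed. Of all 19938 genes, 10029 were above 0 in this comparison. The markers were read on the same arrays and are not independent of each other. Of 11 activated fibroblast markers, 6 rose and 2 fell in KO and 4 rose and 3 fell in WT. Their mean level was 7.91 to 8.07 in KO MI and 7.98 to 8.12 in WT MI. In KO sham it was 6.91 to 6.95 and in WT sham 7.15 to 7.39, so the KO rise started from a lower level. Between KO sham and WT sham 8 of the 11 differences were below 0 (median -0.10), and 0 passed. Tnc, a matrix protein of early wounds, rose by 4.53 in KO and 4.67 in WT. Of 12 smooth muscle and pericyte markers, 1 rose and 5 fell in KO and 1 rose and 9 fell in WT, with mean levels of 7.98 to 8.14 in KO MI, 7.83 to 7.93 in WT MI, 8.25 to 8.33 in KO sham and 8.5 to 8.81 in WT sham, WT MI again being lowest. Of 15 endothelial markers 0 rose and 4 fell in KO and 1 rose and 3 fell in WT. The part of these cell types in the collagen values was not tested.

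Neutrophil markers had the largest median difference between the MI groups of the marker lists measured here. Of them, 9 of 12 rose in KO and 11 of 12 in WT, with mean levels of 7.08 to 7.31 in KO MI, 7.82 to 8.56 in WT MI, 4.06 to 4.23 in KO sham and 4.02 to 4.14 in WT sham. All 12 were lower in mean level in KO MI than in WT MI (median -0.97), and 0 passed. Of all 19938 genes, 9909 were lower in this comparison. Mmp8 and Mmp9 are among the 12 and were also counted in the breakdown list, so the 2 lists are not separate evidence. For Ly6g, with 4.45 and 4.78 in KO MI against 4.07 and 5.56 in WT MI, the direction rests on WT MI replicate 2. For the other neutrophil markers both KO MI arrays also lay below WT MI replicate 1, by little for Camp (4.44 and 4.38 against 4.48) and Ngp (3.16 and 3.09 against 3.32). Of 14 cardiomyocyte markers 0 rose and 4 fell in KO and 0 rose and 7 fell in WT, with mean levels of 12.71 to 12.75 in KO MI, 12.62 to 12.66 in WT MI, 12.95 to 13.02 in KO sham and 13.03 to 13.06 in WT sham. Of 13 monocyte and macrophage markers 6 rose and 0 fell in both. Markers of liver, which are no heart genes, were high on 3 of the 4 sham arrays: Alb, the gene of serum albumin, read 3.64 and 3.82 in KO MI, 3.65 and 3.9 in WT MI and 5.56 in KO sham replicate 2, and between 9.11 and 10.46 on the other sham arrays, and the mean of 9 liver markers was 4.59 to 4.77, 4.78 to 5.01, 4.57 to 6.68 and 6.05 to 6.92 in these groups. With KO sham replicate 1 left out, the KO sham array lowest in liver markers stood alone. The KO differences of Col12a1, Col3a1, Col6a1 and Col6a2 were then 1.11, 0.63, -0.75 and -0.52, against 1.04, 0.66, -0.60 and -0.44 with all arrays. Those of Col4a1, Col4a2 and Col5a2 were 0.47, 0.44 and 0.47, against 0.58, 0.61 and 0.62. For Col8a1 and Col14a1 they were larger, 0.69 and -0.96, against 0.63 and -0.86. A call lost with this array left out thus need not mean a smaller difference. Whether liver markers bear on the KO values was not tested. In WT hearts both sham arrays carried liver markers, and their part in the WT values was not tested.

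**Figure D5:**
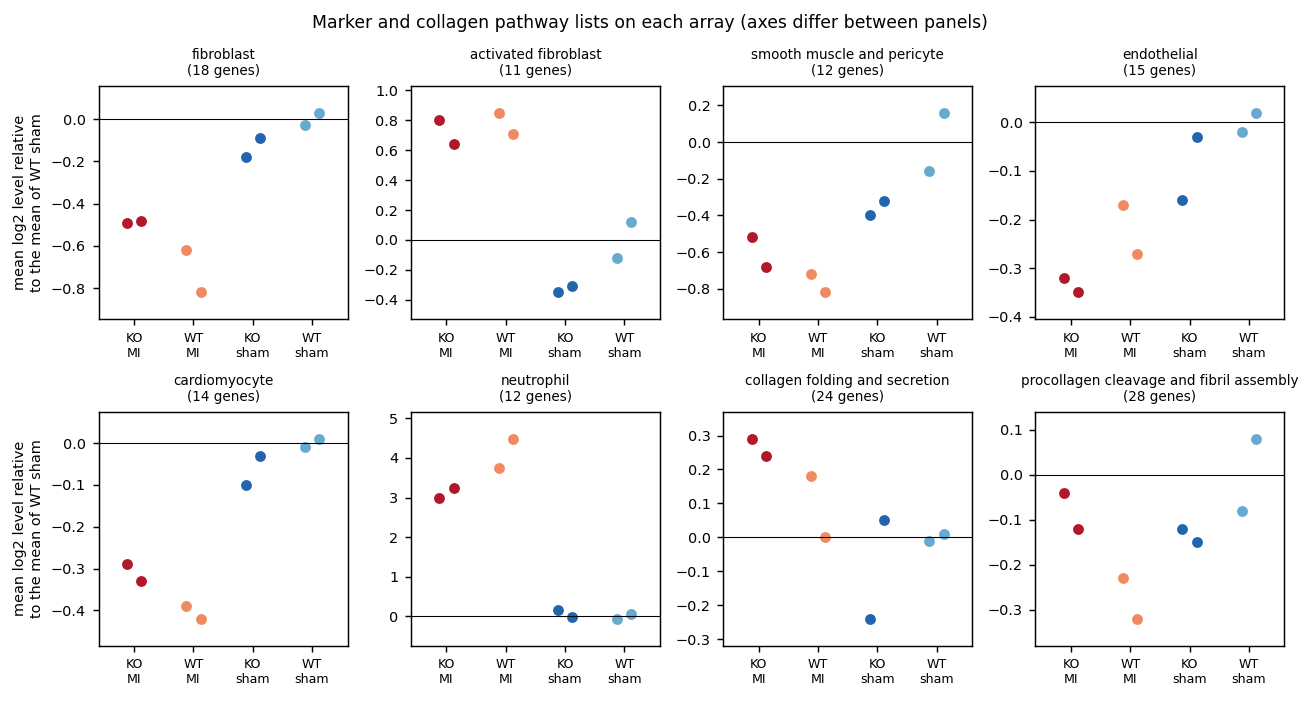
Mean log2 level of 6 cell type marker lists and 2 collagen pathway lists on each array, relative to the mean of WT sham (y axes, which differ between panels), in KO MI, WT MI, KO sham and WT sham. Fibroblast markers lie at -0.49 and -0.48 in KO MI and at -0.62 and -0.82 in WT MI, and neutrophil markers at 3.0 and 3.24 in KO MI and at 3.74 and 4.48 in WT MI.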

How the data were processed

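RNA of mouse hearts was measured on 8 Affymetrix Mouse Gene ST arrays, in 4 groups of 2. The deposited values are log2 expression levels from the authors' run of RMA in Affymetrix Expression Console, per the submitters' processing notes. No version or genome build was found there. Array medians lay between 5.004 and 5.253. Detection calls were not used.

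The table held 35556 probes, of which the platform annotation gave 21789 1 gene, 1621 several and listed 12146 not at all. Of those with 1 gene, 21698 matched the RefSeq table (GRCm38.p6). The probe with the highest mean stood for each of 19938 genes, with no filter on low values. No collagen was named by a probe of several genes, and only Col6a5 and Col6a6 had 2 probes.

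All 8 arrays entered 1 fit of 4 group means with limma 3.58.1 in R 4.3.3 (4 residual degrees of freedom, 5.57 from the prior), two-sided, with Benjamini-Hochberg adjustment over 19938 genes. For the genotype effect averaged over conditions, condition was an additive term. At 2 arrays a group, 0.333 is the smallest p that an exact two-sided permutation test allows. Precision is limited by the number of arrays. The code was tested on simulated data.

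Every fibrillar and basement membrane collagen was named, and of the other class those past the threshold and the 6 with the highest mean. Pathway and marker lists (folding and secretion, cleavage and assembly, breakdown, receptors, regulators; fibroblast, activated fibroblast, endothelial, smooth muscle and pericyte, cardiomyocyte, neutrophil, monocyte and macrophage, cartilage, liver and 6 more given in the closing section) name up to 4 genes with the smallest p; Itga1, P3h2 and Alb are among those. Some genes stand in several lists and count in each. The members, lists and tests were chosen with earlier results of these data known. The plots were made in Python 3.11.15 with matplotlib 3.10.9.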

Additional observations from a re-analysis of the deposited data

Results flagged for a closer look

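Col1a1 stood on opposite sides of sham in the 2 genotypes: both KO MI arrays (8.82 and 8.62) lay above both KO sham arrays (8.12 and 8.45), and both WT MI arrays (8.09 and 7.88) lay below both WT sham arrays (8.17 and 8.33). Of all genes 1.22% stood this way and 1.64% the reverse way, so 1 such gene among 44 is near the share of all genes. The difference of the responses, KO minus WT, was 0.69 (SE 0.22), and it did not pass limma's Benjamini-Hochberg adjustment (adjusted p = 0.517, and between 0.126 and 0.973 over the alternatives). Its size was 0.53 without KO sham replicate 1, 0.59 without WT MI replicate 2 and 0.43 without both arrays.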

How the results depend on the processing

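None of the 18 calls changed sign in the 20 alternative fits, while 64 of the 138 results of named collagens that did not pass changed sign in at least 1. In these fits the KO call of Col12a1 and the WT calls of Col1a2, Col4a1, Col6a1, Col6a2 and Col14a1 held; a 2-fold minimum kept only Col12a1 in KO and Col14a1 in WT. In KO hearts the 6 rises became 2 with all probes tested, 1 with a 2-fold minimum and 10 without KO sham replicate 1 and WT MI replicate 2 together (chosen after seeing the data), and ranged from 1 to 6 when single arrays were left out, the 1 without KO MI replicate 1. The 3 falls became 1 with array weights or all probes, 0 with a 2-fold minimum, and ranged from 0 (without either KO MI array) to 3. In WT hearts the 4 rises became 7 with array weights, 7 without the lowest 33.3% of genes and 0 with a 2-fold minimum, and ranged from 1 (without WT sham replicate 1; 2 without WT sham replicate 2) to 8 (without either KO sham array). The 5 falls became 1 with a 2-fold minimum and ranged from 4 to 5. Between KO MI and WT MI the 0 higher collagens became 1, Col3a1, with an intensity trend, and the other counts between KO and WT stayed at 0 (limma; 8, 3, 7 and 4 collagens had an unadjusted p under 0.05 in MI hearts, in sham hearts, for the difference of responses and for the average). Medians of the classes moved beyond the spread in 16 of 180 alternatives. The causes were not tested. The labels do not say what the replicate numbers share, and replicate deviations of same-numbered arrays correlated between -0.19 and 0.16; with the replicate block the counts were 6, 3, 4 and 5, as without it. A lone array was assumed to vary like the other groups.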

Other observations

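Of all genes, 10.5% rose and 10.3% fell in KO hearts, and 12.3% rose and 15.8% fell in WT hearts. Of 9 lymphocyte markers, 0 of them above the median gene, 0 rose or fell in KO and 1 rose in WT. Of 10 mesothelial and epicardial markers 1 rose in KO and 1 fell in WT, and of 7 Schwann and glial markers 1 rose and 1 fell in KO and 3 fell in WT. Of 7 adipocyte markers 0 passed in KO and 1 fell in WT. Of 8 skeletal muscle markers 1 rose in KO and 2 rose in WT, and 0 of 2 erythrocyte markers passed in either. Of the 9 liver markers 1 rose and 1 fell in KO and 1 rose and 6 fell in WT.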
